A study of Mus musculus with 42 samples.

Results

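The enzymes that build, extend and cap mucin-type sugar chains were followed through mouse colon goblet cells, stromal cells and colonic organoids. They were chosen by gene name alone: every row whose symbol begins with Galnt, Gcnt, C1galt, B3gnt, B3galt, B4galt, B4galnt, St3gal, St6gal, St6galnac, St8sia, Fut or Chst followed by a number. The rule gave 85 of 19232 row names, of which 16 belong to the family that starts the chain, the antisense transcript Galnt6os among them, 8 to enzymes of its cores and branches, 22 to enzymes that extend it, 19 to sialyltransferases, 8 to fucosyltransferases and 12 to carbohydrate sulfotransferases. A mean normalized count of at least 10 was asked for in each table, and 51 members reached it in every one of the 12 tables, while Fut7, Galnt9 and Gcnt7 reached it in none. In the tables of Muc2-mCherry+ cells 59 to 61 members passed this filter, in those of Gli1-tdTomato+ cells 76 to 78 and in those of organoids 58 to 60. The count of each member is the reads of the whole gene, so splice forms were not separated.

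The mice carried Gli1-CreERT2, a tamoxifen-inducible recombinase made in Gli1+ stromal cells, and cells were taken 30 days after tamoxifen from mice of both sexes aged 2 to 4 months. GWT mice, the controls, carried the recombinase and no floxed gene, GS4 mice were also Smad4 fl/fl and GA3 mice were Alk3 fl/fl (Alk3 is listed as Bmpr1a in the tables). All received tamoxifen. Goblet cells were sorted by a Muc2-mCherry reporter (GWTM2, GS4M2, GA3M2), and recombined stromal cells by tdTomato (GWTT, GS4T, GA3T), each from the proximal and from the distal colon with 2 libraries per group. The genes were deleted in Gli1+ cells, so a Muc2-mCherry+ cell of a GS4M2 or GA3M2 mouse was compared for its stromal surroundings and not for a deletion of its own. Organoids of wild-type colon, from the distal part by the paper's account, were grown in medium with Wnt3a and the GSK3 inhibitor CHIR. They received 10 nM IL-1α and IL-1β (called IL-1 here), 10 nM IL-17A or neither for 12 or 72 h. There were 3 libraries per group. Whether a library was made from 1 animal or from several is not in the labels, nor whether organoid libraries come from separate cultures, so p-values measure the spread between these libraries only.

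Mucin-type O-glycans begin when a GALNT enzyme attaches N-acetylgalactosamine to a serine or threonine of a mucin. C1GALT1, with its chaperone C1GALT1C1, then makes core 1, B3GNT6 makes core 3, and GCNT1, GCNT3 and GCNT4 add the branches of cores 2 and 4. Galactose and N-acetylglucosamine lengthen the chain, and sialic acid, fucose or sulfate ends it, which gives colonic mucus its charge and its resistance to bacterial enzymes. The same families also serve other chains: ST6GAL1 and FUT8 act on N-glycans, ST3GAL5, ST8SIA1 and B4GALNT1 on gangliosides, and CHST3, CHST11, CHST14 and CHST15 on the chondroitin and dermatan sulfate of the stromal matrix.

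The promoters of 4 members whose values the results turn on are given first, from RefSeq on GRCm38.p6, as the 250 bases before the start of transcription, 5′ to 3′ in the direction of the gene. Chst11 (chr10:82985247-82985496, + strand) and B4galnt2 (chr11:95914872-95915121, - strand) had lower values, which did not pass the adjusted threshold, in the goblet cells of both knockouts. Chst11 was tested there in the proximal colon only, and it rose in Smad4-deleted stromal cells of both segments. Chst15 (chr7:132317229-132317478, - strand) rose in Smad4-deleted stromal cells of the proximal colon and in organoids after 72 h of either cytokine, and B4galt1 (chr4:40853985-40854234, - strand) rose in organoids after 72 h of either cytokine. Each window lies at the start of its gene, which GENCODE M21 places at chr10:82985498-83195900 for Chst11, chr11:95865943-95914891 for B4galnt2, chr7:132235780-132317228 for Chst15 and chr4:40804602-40854005 for B4galt1. Capitals mark the letters GGCGCC, a motif of the BMP-responsive SMAD1 and SMAD5 that reads the same on both strands. The first of these letters is 133 bases before the Chst11 start and 156 bases before the B4galnt2 start, and the Chst15 and B4galt1 windows do not hold them.
Chst11: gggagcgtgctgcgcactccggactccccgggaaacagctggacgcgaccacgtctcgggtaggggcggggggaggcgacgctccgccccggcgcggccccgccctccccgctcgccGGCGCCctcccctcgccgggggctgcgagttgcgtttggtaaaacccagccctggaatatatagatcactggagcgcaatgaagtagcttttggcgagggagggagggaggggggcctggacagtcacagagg
B4galnt2: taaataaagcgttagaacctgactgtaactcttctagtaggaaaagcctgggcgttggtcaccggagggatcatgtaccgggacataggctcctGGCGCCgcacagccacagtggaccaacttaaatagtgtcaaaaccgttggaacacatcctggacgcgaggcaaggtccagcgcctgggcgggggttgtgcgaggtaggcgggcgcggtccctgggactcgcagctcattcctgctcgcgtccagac
Chst15: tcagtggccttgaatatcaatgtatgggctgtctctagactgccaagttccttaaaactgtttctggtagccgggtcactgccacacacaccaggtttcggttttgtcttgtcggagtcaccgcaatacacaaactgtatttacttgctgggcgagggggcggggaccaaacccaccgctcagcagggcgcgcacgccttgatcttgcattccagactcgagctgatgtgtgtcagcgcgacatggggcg
B4galt1: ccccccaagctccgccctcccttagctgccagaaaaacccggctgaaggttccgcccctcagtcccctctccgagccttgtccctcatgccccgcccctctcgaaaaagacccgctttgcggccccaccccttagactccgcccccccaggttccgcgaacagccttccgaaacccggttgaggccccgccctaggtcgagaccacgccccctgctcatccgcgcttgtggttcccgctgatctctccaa

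Promoters were given for 65 of the 85 members, as 86 windows. GGCGCC occurred in 17 of these 86 windows (19.8%) and in 9.59% of all 32851 windows of the same length. The 10-letter consensus of NF-κB, searched on both strands, occurred in 0 of the 86 member windows and in 1.21% of all. These motifs were counted separately, and a match or its absence describes the letters of these windows only.

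Each library held 14222902 to 23686940 reads on named genes. A gene counts as called where limma, fitted on all genes of the table, gave it a change of 2-fold or more at an adjusted p (Benjamini-Hochberg) under 0.05. The targeted genes check the labels: Smad4 fell in proximal GS4T cells by 1.09 on the log2 scale (adjusted p = 0.0101, limma) and was at -0.96 in distal ones, and Bmpr1a was at -0.61 and -0.69 in proximal and distal GA3T cells (adjusted p = 0.12 and 0.101). Of 18 organoid columns 16 were distinct: 2 of the 3 control libraries at 12 h hold the same reads as 2 of the 3 at 72 h. Which time these libraries belong to is not known. At 12 h or at 72 h, whichever does not apply to them, time in culture and cytokine therefore cannot be told apart. The GWTM2 and GWTT libraries of a segment are likewise the controls of both knockouts. The sorts held their markers: Muc2 was at 2429 to 12374 CPM in GWTM2 libraries and at 3.61 to 161 CPM in GWTT libraries, and all 9 markers of stromal cells were lower in goblet cells. Epithelial transcripts were not absent from the stromal libraries, as described with the knockouts.

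Control goblet cells and control stromal cells used largely different members of these families, which the fit on CPM (recovered reads, scaled to the same total of reads on named genes in each library) called for 68 of 78 members tested, 37 higher in Muc2-mCherry+ cells and 31 higher in Gli1-tdTomato+ cells. Of all 15303 genes, 53.4% were called between the same 4 and 4 libraries. The median log2 difference (Muc2-mCherry+ minus Gli1-tdTomato+) was 0.99 over the members and 0.04 over all genes, and 0.99 again with the members at 0 in one cell type set to the bound that 3 reads over the group give. With TMM scaling the median of all genes moved to -0.17 and the members called were 37 and 32. Of the 31 members higher in stromal cells, 15 have no row in the Muc2-cell tables used and entered as 0, for which no fold is given.

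Among the members of the family that starts the chain, 8 of 15 were higher in goblet cells and 6 in stromal cells, the antisense transcript Galnt6os being 1 of the 8. Galnt3 had 244 and 266 CPM in proximal and 283 and 173 in distal goblet cells. Stromal cells had 0.489 and 2.60 proximally and 0.537 and 0.537 distally (log2 difference 8.05 ± 0.46 SE, limma adjusted p = 1.81e-06). Galnt12 had 414 and 377 CPM in proximal and 432 and 280.2 in distal goblet cells. Stromal cells had 2.94 and 6.49 proximally and 5.01 and 4.47 distally (6.32 ± 0.25, adjusted p = 2.96e-07). Every goblet library stood above every stromal library for both genes, as it did for Galnt7 (4.83 ± 0.09, adjusted p = 7.63e-09), whose enzyme prefers peptides that already carry a sugar, and for Galnt4 (3.29 ± 0.09, adjusted p = 3.81e-08), Galnt5, Galnt6 and Galnt10. Galnt2 ran the other way, with 67.7 and 69.5 CPM in proximal and 53.4 and 48.3 in distal goblet cells. Stromal cells had 245 and 251 proximally and 298 and 327 distally (-2.24 ± 0.15, adjusted p = 5.23e-06). Galnt15 had 336 and 148 CPM in the proximal and 92.4 and 99.5 in the distal stromal libraries and no row in the goblet-cell tables, and Galnt16 and Galnt17 shared that pattern. Galnt1 did not pass the fold threshold (log2 difference 0.38 ± 0.12), with 144 and 147 CPM in proximal and 229 and 173 in distal goblet cells. Stromal cells had 123 and 131 proximally and 129.9 and 141 distally. Galnt6os overlaps Galnt6 and cannot be told apart from it where counting ignored strand.

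Of the 7 core and branching enzymes tested, 5 were higher in goblet cells. B3gnt6, the core 3 synthase, had 157 and 179 CPM in proximal and 45.0 and 86.5 in distal goblet cells. Stromal cells had 0.306 and 0.309 proximally and 0 and 0 distally (log2 difference 8.99 ± 0.25 SE, limma adjusted p = 5.43e-08). Gcnt3 had 669 and 824 CPM in proximal and 384 and 285 in distal goblet cells. Stromal cells had 0.245 and 12.98 proximally and 1.49 and 2.15 distally (7.95 ± 0.99, adjusted p = 0.000155). The second proximal stromal library stood above the other stromal ones. C1galt1 was less unequal, with 717 and 747 CPM in proximal and 789.9 and 615 in distal goblet cells. Stromal cells had 114 and 116 proximally and 92.2 and 108 distally (2.74 ± 0.10, adjusted p = 1.59e-07). Its chaperone gene C1galt1c1 differed by 3.31 ± 0.15 (adjusted p = 5.01e-07). Gcnt2, the enzyme of I branches, was higher in stromal cells (-2.93 ± 0.28, adjusted p = 3.5e-05) and Gcnt4 was not called (0.93 ± 0.50, adjusted p = 0.121).

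Chain extension divided in the same manner, with 12 of 22 members higher in goblet cells, 4 higher in stromal cells and 6 not called. B3galt5, which adds the galactose of type 1 chains, had 1268 and 1228 CPM in proximal and 1429 and 1139 in distal goblet cells. Stromal cells had 1.84 and 10.1 proximally and 3.28 and 6.62 distally (log2 difference 8.10 ± 0.48 SE, limma adjusted p = 2.37e-06). B4galnt2, the enzyme of the Sda antigen, had 527 and 446 CPM in proximal and 207 and 186 in distal goblet cells. Stromal cells had 0.673 and 14.5 proximally and 1.01 and 3.64 distally (6.88 ± 0.85, adjusted p = 0.00015). All goblet libraries were above all stromal libraries for both, although the second proximal stromal library was the highest of its group each time. B3gnt3, which extends core 1, and B3gnt7 differed by 6.57 ± 0.35 (adjusted p = 1.27e-06) and 8.09 ± 0.40 (adjusted p = 9.08e-07). B4galt2 had at most 0.353 CPM in a goblet library and 45.5 and 49.5 CPM in proximal and 54.8 and 48.1 in distal stromal ones. B4galt1, the general β1,4-galactosyltransferase, stood just under the fold threshold (-0.96 ± 0.16, adjusted p = 0.000902).

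For the ends of the chains the cell types took different enzymes of each family, all 16 sialyltransferases tested being called, 7 higher in goblet cells and 9 in stromal cells. St3gal6 had 72.1 and 79.5 CPM in proximal and 204 and 242 in distal goblet cells. Stromal cells had 5.20 and 6.61 proximally and 3.52 and 5.49 distally (log2 difference 4.65 ± 0.39 SE, limma adjusted p = 1.65e-05). St3gal1, which sialylates core 1, had 16.1 and 19.0 CPM in proximal and 1.70 and 6.57 in distal goblet cells. Stromal cells had 145 and 97.8 proximally and 113 and 113 distally (-3.90 ± 0.56, adjusted p = 0.000346). Every goblet library was below every stromal one for St3gal1. St6galnac6 was 4.04 ± 0.11 (adjusted p = 5.43e-08), St6gal1 2.25 ± 0.19 (adjusted p = 1.88e-05) and St3gal4 2.29 ± 0.24 (adjusted p = 6.28e-05), all higher in goblet cells. St3gal2 was -7.83 ± 0.26 (adjusted p = 1.1e-07) and the polysialic acid enzyme genes St8sia2 and St8sia4 had rows in stromal tables only. The secretor-type fucosyltransferase gene Fut2 had 651 and 604 CPM in proximal and 769.5 and 426 in distal goblet cells. Stromal cells had 0.734 and 6.36 proximally and 1.37 and 2.62 distally (8.12 ± 0.59, adjusted p = 7.08e-06). Fut4, Fut8 and Fut9 were also higher in goblet cells. Of 11 sulfotransferases, Chst4 alone was called higher in goblet cells and 9 were called higher in stromal cells. Chst4, which places sulfate on N-acetylglucosamine, had 192 and 187 CPM in proximal and 248 and 201.3 in distal goblet cells. Stromal cells had 0.306 and 0.618 proximally and 0.477 and 1.37 distally (8.19 ± 0.33, adjusted p = 3.01e-07). Chst11, a chondroitin 4-O-sulfotransferase gene, had 5.85 and 9.51 CPM in proximal and 0.227 and 1.00 in distal goblet cells. Stromal cells had 37.9 and 34.6 proximally and 79.5 and 75.2 distally (-4.64 ± 0.95, adjusted p = 0.00245).

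**Figure D1:**
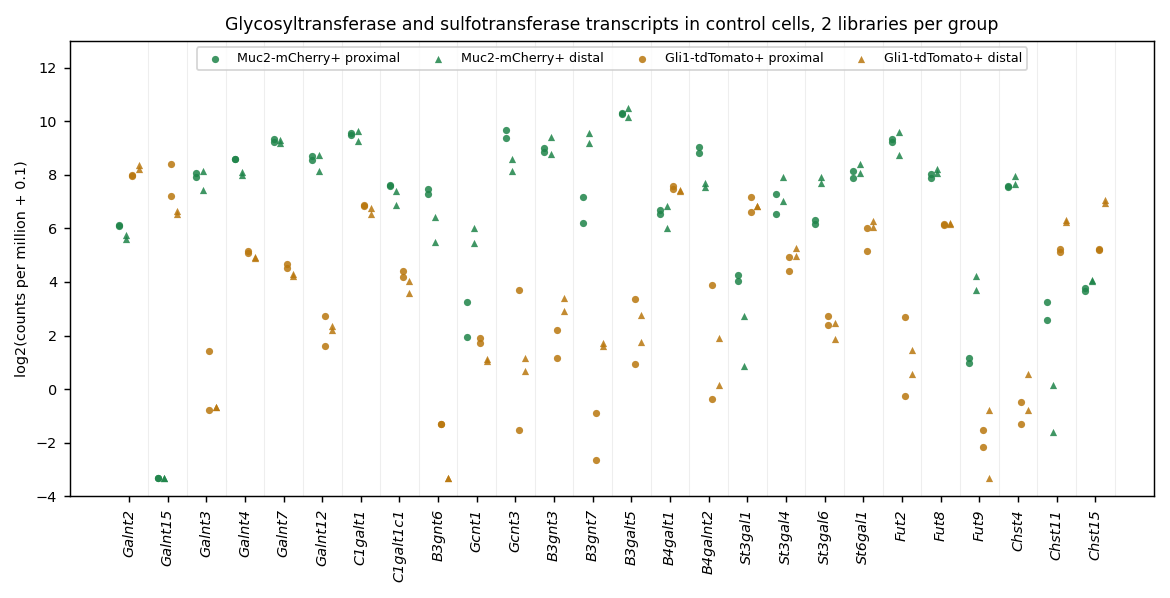
Expression of 26 members in control cells, as log2(CPM + 0.1) on the vertical axis, with 1 point per library (green: Muc2-mCherry+ cells, ochre: Gli1-tdTomato+ cells, circles: proximal colon, triangles: distal colon). Green points lie above ochre points for Galnt3, B3gnt6, B3galt5, Fut2 and Chst4 and below them for Galnt2, Galnt15, St3gal1, Chst11 and Chst15, and B4galt1 has the cell types close together.

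Levels can be compared between genes only per length, here as RPKM, the CPM divided by the exon length in kilobases. On that scale B4galnt2 was the highest member of proximal goblet cells (306 and 259 RPKM in the 2 libraries), followed by St6galnac6 (225 and 210), B3galt5 (206 and 199), Gcnt3 (156 and 192) and Galnt12 (181 and 165). St6galnac6 (349 and 267) and B3galt5 (232 and 185) headed the distal goblet cells, where B4galnt2 ranked 8 of 63 (120 and 108). Galnt2 was the highest in stromal cells of both segments (57.2 and 58.6 proximal, 69.6 and 76.5 distal), then B4galt1 in proximal cells (41.6 and 44.9) and B3gnt9 in distal cells (45.8 and 41.3). Of these proximal neighbours Gcnt3 and Galnt12 overlapped in their libraries and the others did not.

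Genes that feed the pathway were also higher in goblet cells. Of 21 genes tested for sugar nucleotide and sulfate supply 16 were higher and 1 lower, and of 10 transporters of the Slc35 and Slc26 families 8 were higher. Gfpt1, which commits glucose to hexosamine, differed by 4.41 on the log2 scale and its paralog Gfpt2 by -11.16, and the CMP-sialic acid transporter gene Slc35a1 by 3.59. Of 9 mucins 7 were higher in goblet cells and Muc16 was lower, and of 11 trimming enzymes 6 were higher and 2 lower. Of 15 transferases outside the name rule, 7 were higher in goblet cells, among them A4gnt (9.49), which caps chains with α1,4-linked N-acetylglucosamine, and 5 were lower.

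Between the proximal and the distal colon, control goblet cells differed in B4galnt2, Fut9, St3gal6 and St6galnac4. Called were 4 of 57 members (7.02%), against 0.751% of 13190 genes, 1 higher and 3 lower in the proximal colon. B4galnt2 had 527 and 446 CPM in the proximal and 207 and 186 in the distal libraries (log2 difference 1.30 ± 0.14 SE, limma adjusted p = 0.0422). Fut9, which makes the Lewis X fucose linkage, had 1.87 and 2.14 CPM in the proximal and 12.9 and 18.8 in the distal libraries (-2.90 ± 0.29, adjusted p = 0.0422). St3gal6 had 72.1 and 79.5 CPM in the proximal and 204 and 242 in the distal libraries (-1.55 ± 0.13, adjusted p = 0.0415) and St6galnac4 was -1.42 ± 0.15 (adjusted p = 0.0435). The segments did not overlap in any of these 4 genes, B4galnt2 being the one that was higher proximally.

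By the unadjusted p with a 2-fold change 15 of 57 members passed, against 5.83% of all genes, and larger differences stood among them that missed the adjusted threshold. Gcnt1, a core 2 enzyme, had 9.43 and 3.72 CPM in the proximal and 65.0 and 43.9 in the distal libraries (-3.15 ± 0.48, adjusted p = 0.0784). B3gnt7 had 143 and 73.2 CPM in the proximal and 583 and 753 in the distal libraries (-2.70 ± 0.34, adjusted p = 0.0551). Both were lower in every proximal library. Chst11 had 5.85 and 9.51 CPM in the proximal and 0.227 and 1.00 in the distal libraries (3.66 ± 0.67, adjusted p = 0.12). B3gnt6 had 157 and 179 CPM in the proximal and 45.0 and 86.5 in the distal libraries (1.42 ± 0.32, adjusted p = 0.169). Gcnt3 had 669 and 824 CPM in the proximal and 384 and 285 in the distal libraries (1.17 ± 0.20, adjusted p = 0.102). These 3 genes were higher in every proximal library. St3gal5 had 1.01 and 3.78 CPM in proximal libraries and 0 in both distal ones. The core 1 synthase gene C1galt1 was 0.07 ± 0.17 (adjusted p = 0.911). Of the other pathway genes, Gal3st2 (-2.97 ± 0.24, adjusted p = 0.0415), Gal3st2b (-4.89 ± 0.54, adjusted p = 0.0456) and Gal3st2c (-3.06 ± 0.24, adjusted p = 0.0415), near-identical genes of galactose 3-O-sulfation whose reads may be split uncertainly, were lower proximally, and so was Muc4 (-1.25 ± 0.14, adjusted p = 0.0482). The 4 calls were lost in edgeR and with TMM scaling (0 members each) and without either proximal library (0), and their number was 8 and 12 without the first and the second distal library.

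In control stromal cells 6 of 76 members (7.89%) were called between segments, against 2.41% of 15124 genes, 3 in each direction. The 3 lower in the proximal colon were sulfotransferases. Chst15, which makes the highly sulfated chondroitin unit, had 37.8 and 36.1 CPM in the proximal and 132 and 124 in the distal libraries (log2 difference -1.79 ± 0.10 SE, limma adjusted p = 0.00412). Chst1, a keratan sulfate enzyme gene, had 16.2 and 15.3 proximally and 53.1 and 49.7 distally (-1.70 ± 0.12, adjusted p = 0.00799). Chst11 had 37.9 and 34.6 CPM proximally and 79.5 and 75.2 distally (-1.09 ± 0.11, adjusted p = 0.0121). St6galnac2 (23.5 and 21.1 proximal, 1.97 and 2.86 distal, 3.17 ± 0.28, adjusted p = 0.0113), Galnt16 (1.83 ± 0.16, adjusted p = 0.0113) and Galnt17 (1.32 ± 0.19, adjusted p = 0.0297) were higher proximally, with no overlap of libraries. Leaving out any 1 of the 4 libraries left 0 members called. Of 10 macrophage markers 3 were lower in the proximal libraries. By Xist reads the proximal libraries were 1 male and 1 female and the distal ones 2 female. The part of the markers and of sex in these differences was not tested. Papss2, which makes the sulfate donor PAPS, was higher proximally (1.92 ± 0.19, adjusted p = 0.0131), as 1 of 21 supply genes.

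In goblet cells of mice that lost Smad4 or Alk3 in the stroma, no member passed the adjusted threshold, while Muc2 fell in proximal GA3M2 cells. In proximal GA3M2 cells Muc2 had 179572 and 224217 normalized counts in GWTM2 libraries and 18753 and 14042 in GA3M2 libraries (-3.63 ± 0.34, adjusted p = 0.0464, limma), a fall. In distal ones it had 41156 and 109532 normalized counts in GWTM2 libraries and 16015 and 12294 in GA3M2 libraries (-2.26 ± 0.47, adjusted p = 0.306). In GS4M2 cells it had 168657 and 212088 normalized counts in proximal GWTM2 libraries and 401714 and 356310.0 in GS4M2 libraries (1.00 ± 0.35, adjusted p = 0.237). It had 43021 and 113478 normalized counts in distal GWTM2 libraries and 238217 and 194631 in GS4M2 libraries (1.62 ± 0.50, adjusted p = 0.43). The knockout libraries were thus below both controls for GA3M2 and above both for GS4M2, and 1 of these 4 differences was called.

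Over the 59 members tested in the proximal GS4M2 table and the 61 in the distal one, limma called 0 and 0, edgeR 0 and 0 and DESeq2 4 and 2, and the unadjusted p with a 2-fold change held for 6 and 4. Over all genes these shares were 0.325% and 0% (limma), 0.385% and 0% (edgeR), 2.04% and 1.13% (DESeq2), and 4.28% and 2.7% (unadjusted). For GA3M2, with 60 members in each segment, limma and edgeR called 0 and 0, DESeq2 5 and 3 and the unadjusted p 8 and 5. The shares over all genes were 0.0899% and 0% (limma), 0.105% and 0% (edgeR), 3.23% and 1.83% (DESeq2), and 6.83% and 4.12% (unadjusted). The median log2 fold change of the members was 0.16 and -0.12 in proximal and distal GS4M2 cells and -0.06 and 0.03 in GA3M2 cells, beside medians of -0.002, 0.003, -0.003 and 0.001 over all genes. Leaving out 1 library gave at most 1 and 2 members in proximal and distal GS4M2 cells, 7 in proximal GA3M2 cells without their first library, and 5 in distal GA3M2 cells without either control. The values that follow are described without a call.

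In the proximal colon Chst11 was low and Gcnt1 high in both knockouts. It had 99.6 and 163 normalized counts in proximal GWTM2 libraries and 31.5 and 47.8 in GS4M2 libraries (log2 fold change -1.69 ± 0.36 SE, limma adjusted p = 0.119). It had 106 and 172 normalized counts in proximal GWTM2 libraries and 11.1 and 20.3 in GA3M2 libraries (-3.09 ± 0.47, adjusted p = 0.111), both knockouts being set against the same 2 control libraries. Each knockout library was below each control, and in the distal tables Chst11 was under the filter. Gcnt1 ran the other way, with 161 and 63.7 normalized counts in proximal GWTM2 libraries and 276 and 251 in GS4M2 libraries (1.37 ± 0.42, adjusted p = 0.197). It had 171 and 67.3 normalized counts in proximal GWTM2 libraries and 425 and 641 in GA3M2 libraries (2.27 ± 0.47, adjusted p = 0.161), all knockout libraries above both controls. In the distal colon controls had 1152 and 795 beside 1118 and 1138 in GS4M2 libraries, which overlapped.

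Other core and extension enzymes are given with the side of the controls on which the knockout libraries stood, none of them being called. B3gnt6 had 2677 and 3068 normalized counts in proximal GWTM2 libraries and 5545 and 4240.0 in GS4M2 libraries (0.76 ± 0.15, adjusted p = 0.112). It had 2850.4 and 3243 normalized counts in proximal GWTM2 libraries and 5354 and 4490.1 in GA3M2 libraries (0.69 ± 0.19, adjusted p = 0.233), above both controls each time. In the distal colon B3gnt6 had 798 and 1566 in GWTM2 libraries and 778 and 588 in GS4M2 libraries (-0.72 ± 0.35, adjusted p = 0.51), below both controls. Gcnt3 had 6806 and 5165 normalized counts in distal GWTM2 libraries and 2924 and 2922 in GS4M2 libraries (-1.02 ± 0.16, adjusted p = 0.37), below the controls. For GA3M2 in the distal colon the value was 0.16 ± 0.24 (adjusted p = 0.828). B4galnt1, the GM2 and GD2 synthase gene, had 2458 and 3113 normalized counts in distal GWTM2 libraries and 1344 and 950.5 in GS4M2 libraries (-1.29 ± 0.21, adjusted p = 0.37). It had 5257 and 6505 normalized counts in proximal GWTM2 libraries and 3382 and 3517 in GS4M2 libraries (-0.76 ± 0.13, adjusted p = 0.0832). Its GS4M2 libraries were below the controls in both segments. B4galnt2 had 9553 and 8083 normalized counts in proximal GWTM2 libraries and 4584 and 2145 in GA3M2 libraries (-1.49 ± 0.36, adjusted p = 0.208). It had 3506 and 3254 normalized counts in distal GWTM2 libraries and 1809 and 1100.4 in GA3M2 libraries (-1.26 ± 0.25, adjusted p = 0.306). GS4M2 libraries had 5389.8 and 6354 proximally and 1991 and 2277 distally. All 8 knockout libraries were below the controls of their segment for B4galnt2. B4galt1 had 1909 and 1123 normalized counts in distal GWTM2 libraries and 3546 and 4243 in GA3M2 libraries (1.40 ± 0.27, adjusted p = 0.306). It had 1872 and 1673 normalized counts in proximal GWTM2 libraries and 3532 and 3535 in GA3M2 libraries (1.00 ± 0.17, adjusted p = 0.134), above the controls. In distal GS4M2 cells it had 1017 and 1271, overlapping them.

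At the ends of the chains, St3gal4 had 2224 and 4186 normalized counts in distal GWTM2 libraries and 993 and 1236 in GA3M2 libraries (-1.46 ± 0.32, adjusted p = 0.306). It had 1669 and 2783 normalized counts in proximal GWTM2 libraries and 1000.5 and 1281 in GA3M2 libraries (-0.93 ± 0.28, adjusted p = 0.25). Each GA3M2 library was below its controls, while GS4M2 and control libraries overlapped in both segments (0.09 ± 0.23, adjusted p = 0.883 proximal). St3gal5, the GM3 synthase gene, had 17.2 and 64.8 normalized counts in proximal GWTM2 libraries and 1.05 and 5.09 in GS4M2 libraries (-3.29 ± 0.86, adjusted p = 0.167). Chst8 had 17.2 and 28.1 normalized counts in proximal GWTM2 libraries and 68.3 and 97.7 in GS4M2 libraries (1.85 ± 0.38, adjusted p = 0.114). Chst13 had 12.0 and 15.8 normalized counts in distal GWTM2 libraries and 67.3 and 50.6 in GS4M2 libraries (adjusted p = 0.37, limma). Counts this low rest on few reads. In proximal GS4M2 and GA3M2 cells Galnt12 was 0.25 ± 0.12 (adjusted p = 0.369) and 0.02 ± 0.22 (adjusted p = 0.973), C1galt1 -0.16 ± 0.15 (adjusted p = 0.639) and -0.05 ± 0.24 (adjusted p = 0.928), B3galt5 0.01 ± 0.14 (adjusted p = 0.983) and -0.19 ± 0.31 (adjusted p = 0.781), and Fut2 0.38 ± 0.16 (adjusted p = 0.299) and 0.12 ± 0.30 (adjusted p = 0.852).

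Beside these values, absorptive cell markers (6 of 6 with a row) summed to 43594 to 99779 normalized counts in proximal GWTM2 libraries and to 10865 to 23569.5 in GS4M2 libraries. Macrophage markers (7 of 10 with a row) summed to 111 to 119 in GWTM2 and 520.4 to 789 in proximal GA3M2 libraries, and neutrophil markers (3 of 8) to 6.85 to 19.2 and 362 to 1574. The first control library of each segment was female and the other goblet-cell libraries were male by the level of their Xist reads. The part of these in the differences was not tested. The difference between segments in the effect of a knockout was called for 0 members in both, with shares over all genes of 0% in limma and 0% in edgeR for GS4M2 and GA3M2 alike, and by the unadjusted p for 11 of 58 (GS4M2, 8.67% of all genes) and 1 of 60 (GA3M2, 1.4%). Of the pathway genes outside the name rule, Papss2 fell in proximal GS4M2 cells (4176 and 4570.3 normalized counts in GWTM2 libraries and 1685 and 1881 in GS4M2 libraries, -1.29 ± 0.11, adjusted p = 0.0177), as 1 of 21 supply genes, and Muc2 was the 1 of 9 mucins called in proximal GA3M2 cells.

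**Figure D2:**
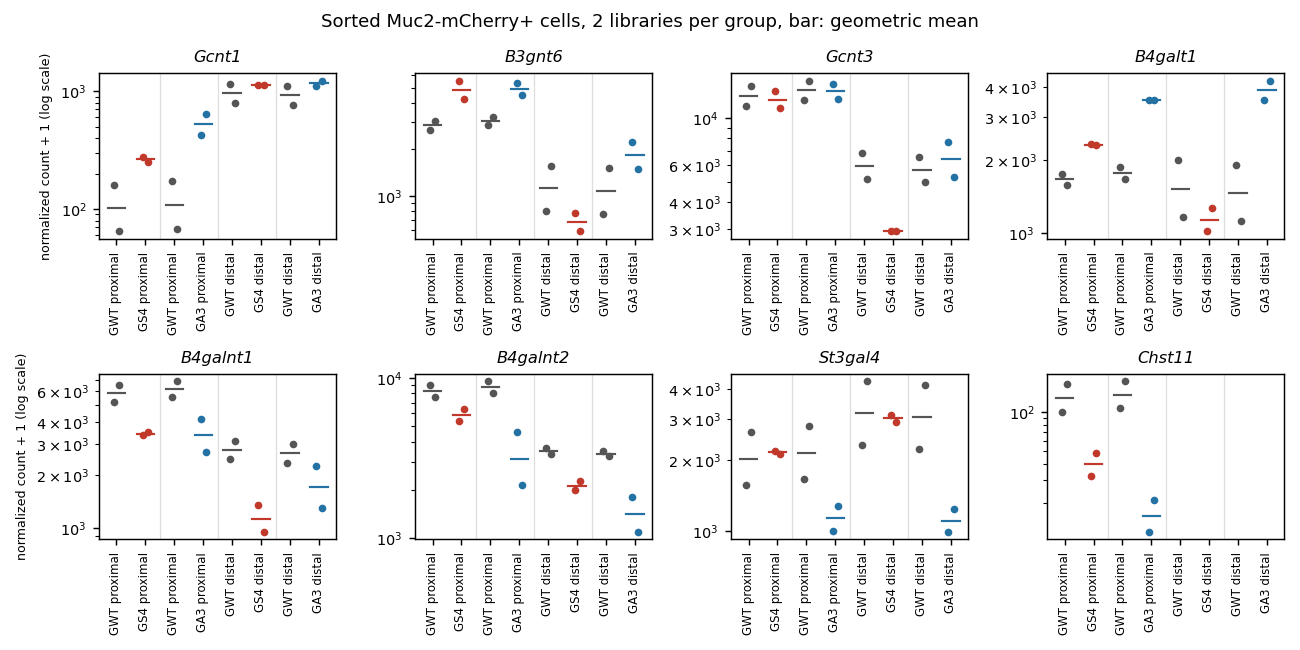
Normalized counts + 1 (log axis) of 8 members in sorted Muc2-mCherry+ cells, 1 point per library and a bar at the geometric mean, for GWTM2 controls (grey), GS4M2 (red) and GA3M2 (blue) in the proximal and distal colon; each control appears in both tables of its segment, scaled with that table. Chst11 and B4galnt2 lie lower and Gcnt1 higher in proximal knockout libraries, St3gal4 is lower in GA3M2 libraries, and Chst11 has no distal points because it was under the filter there.

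In GS4T stromal cells members of every role were called in at least 1 segment: some enzymes of the control stromal set fell, and Chst11 and several members that were high in control goblet cells rose. Limma called 20 of 77 members in proximal GS4T cells (26.0%), 15 higher and 5 lower, against 9.61% of 15319 genes, and 28 of 77 in distal ones (36.4%), 22 higher and 6 lower, against 14% of 15262 genes. The median log2 fold change over the members was 0.24 and 0.34, beside 0.02 and 0.005 over all genes. In bulk libraries fewer cells of a type and less RNA per cell cannot be told apart.

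Epithelial RNA moved with the genotype, and these values stand beside every increase that follows. The 8 colon epithelium markers, all with rows, summed to 271 to 9429 normalized counts in proximal GWTT and 22776 to 30038 in GS4T libraries, and to 1033 to 3232 and 12498 to 25608 in the distal colon. In distal GS4T libraries 8 of 8 were called higher, as were 5 of 9 goblet markers, 8 of 8 neutrophil markers and 5 of 10 macrophage markers, and in proximal ones 1 of 8, 1 of 9, 5 of 7 and 7 of 10. Plasma and B cell markers were lower in distal GS4T libraries (4 of 6). All GS4T and distal GWTT libraries were female by Xist reads, while proximal GWTT libraries, and GA3T libraries in each segment, were 1 male and 1 female. The part of the immune markers and of sex in the changes of the members was not tested. With the mean log2 level of the 8 epithelial markers as a covariate, an alternative chosen after seeing the data, 12 members were called proximally and 0 distally. The shares of all genes in this fit are not given, so these counts are no result about the members. The groups do not overlap in the marker sum, and with 2 libraries a group this fit cannot fully tell epithelial RNA from genotype. Without the first proximal GS4T library 0 members were called, and without the second 3. In the distal colon 14 and 18 members were called without the first and the second control library.

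Of the chondroitin sulfotransferases, Chst11 rose in both segments of GS4T cells and Chst15 in the proximal one, and Chst3 fell in both. Chst11 had 640.0 and 574 normalized counts in proximal GWTT libraries and 2087 and 1490.1 in GS4T libraries (log2 fold change 1.54 ± 0.19 SE, limma adjusted p = 0.0115). It had 1304 and 1222 normalized counts in distal GWTT libraries and 3416 and 3114 in GS4T libraries (1.37 ± 0.11, adjusted p = 0.0017). Every GS4T library was above every control in both segments. Chst15 had 639 and 598 normalized counts in proximal GWTT libraries and 2269.6 and 1744 in GS4T libraries (1.68 ± 0.15, adjusted p = 0.00708) and rose there. Distally it was 0.31 ± 0.19 (adjusted p = 0.292). Chst1, whose enzyme sulfates keratan, had 274 and 254 normalized counts in proximal GWTT libraries and 815 and 734 in GS4T libraries (1.55 ± 0.14, adjusted p = 0.00669), a rise. It had 870.3 and 807 normalized counts in distal GWTT libraries and 833 and 598 in GS4T libraries (-0.25 ± 0.18, adjusted p = 0.365). With the epithelial covariate the proximal log2 fold changes were 1.70 for Chst11, 1.79 for Chst15 and 1.65 for Chst1 (adjusted p = 0.0227, 0.0139 and 0.0147, limma), and the distal value of Chst11 was 1.65 (adjusted p = 0.129). Chst3, the chondroitin 6-O-sulfotransferase gene, had 78.6 and 52.3 normalized counts in proximal GWTT libraries and 14.8 and 12.0 in GS4T libraries (-2.19 ± 0.47, adjusted p = 0.0392). It had 68.5 and 54.2 normalized counts in distal GWTT libraries and 10.6 and 22.3 in GS4T libraries (-1.91 ± 0.53, adjusted p = 0.0494). Chst10, the gene of HNK-1 sulfation, fell as well (-1.53 ± 0.34, adjusted p = 0.0426 proximal, -1.63 ± 0.41, adjusted p = 0.0381 distal). These falls were not called with the epithelial covariate, proximal Chst3 being at -1.68 (adjusted p = 0.191) and Chst10 at -1.20 (adjusted p = 0.204), and distal Chst3 at -2.45 (adjusted p = 0.603) and Chst10 at -1.13 (adjusted p = 0.758).

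Of the enzymes that start the chain and were higher in control stromal cells, Galnt15 fell in both segments, Galnt16 fell in the proximal one and Galnt17 rose in the distal one. Galnt15 had 5687 and 2450.0 normalized counts in proximal GWTT libraries and 791 and 478 in GS4T libraries (-2.60 ± 0.45, adjusted p = 0.0245). It had 1516 and 1616 normalized counts in distal GWTT libraries and 147 and 562 in GS4T libraries (-2.44 ± 0.58, adjusted p = 0.0325). Galnt16 had 1276 and 947 normalized counts in proximal GWTT libraries and 233 and 476 in GS4T libraries (-1.72 ± 0.36, adjusted p = 0.0387), and its distal value was 0.29 ± 0.17 (adjusted p = 0.257). Galnt17 had 161 and 136 normalized counts in distal GWTT libraries and 269 and 404 in GS4T libraries (1.15 ± 0.26, adjusted p = 0.029), and its proximal value was -0.55 ± 0.16 (adjusted p = 0.077). Control and knockout libraries were apart in each of these, the control libraries of Galnt15 differing from each other by 2-fold or more in the proximal colon. Galnt3, Galnt6 and Galnt12 rose in both segments. Galnt3 had 8.27 and 43.0 normalized counts in proximal GWTT libraries and 213 and 374 in GS4T libraries (3.81 ± 0.80, adjusted p = 0.0379). It had 8.80 and 8.71 normalized counts in distal GWTT libraries and 194 and 306 in GS4T libraries (4.65 ± 0.41, adjusted p = 0.00206). With the epithelial covariate Galnt15 was at -1.52 (adjusted p = 0.0501) and Galnt3 at 1.85 (adjusted p = 0.102) in the proximal colon, and Galnt17 at 0.93 (adjusted p = 0.693) in the distal colon.

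Core and extension enzymes rose where they were called, 2 of 7 core and 5 of 22 extension members proximally and 3 of 7 and 6 of 22 distally, none of them lower. Gcnt4 had 34.1 and 32.8 normalized counts in proximal GWTT libraries and 186 and 167 in GS4T libraries (2.37 ± 0.29, adjusted p = 0.0117). It had 32.3 and 64.9 normalized counts in distal GWTT libraries and 296 and 154 in GS4T libraries (2.20 ± 0.48, adjusted p = 0.0261). Gcnt1 had 34.2 and 31.9 normalized counts in distal GWTT libraries and 135 and 133 in GS4T libraries (1.98 ± 0.31, adjusted p = 0.0103). No GS4T library overlapped a control in these core 2 genes, which were low in control stromal cells. B3gnt3 had 36.2 and 75.8 normalized counts in proximal GWTT libraries and 708 and 594 in GS4T libraries (3.60 ± 0.38, adjusted p = 0.00908). It had 173 and 120.0 normalized counts in distal GWTT libraries and 652 and 551 in GS4T libraries (2.05 ± 0.23, adjusted p = 0.00425). B4galnt1, of the gangliosides, and B4galt6, of lactosylceramide, rose by 2-fold or more in both segments. B4galnt1 was at 1.16 ± 0.12 (adjusted p = 0.00812) proximally and 1.07 ± 0.12 (adjusted p = 0.00399) distally. B4galt6 was at 1.14 ± 0.17 (adjusted p = 0.0174) and 1.37 ± 0.15 (adjusted p = 0.00384).

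Sialyltransferases were called for 5 of 16 members in the distal and 0 of 17 in the proximal colon. St3gal1 had 1852 and 1838 normalized counts in distal GWTT libraries and 4525 and 4749 in GS4T libraries (log2 fold change 1.33 ± 0.10 SE, limma adjusted p = 0.0015). It had 2455 and 1621 normalized counts in proximal GWTT libraries and 2863 and 2824 in GS4T libraries (0.51 ± 0.21, adjusted p = 0.155). The GS4T libraries were above both controls in each segment. St8sia6 had 144 and 202 normalized counts in distal GWTT libraries and 12.4 and 36.4 in GS4T libraries (-2.94 ± 0.56, adjusted p = 0.0178). St8sia2 and St8sia4, whose enzymes make polysialic acid, fell with it (-1.70 ± 0.37, adjusted p = 0.0265 and -1.75 ± 0.29, adjusted p = 0.0116). St8sia1, the GD3 synthase gene, rose from 12.7 and 5.81 to 44.3 and 62.2 (2.47 ± 0.59, adjusted p = 0.0331). The test of the difference between segments called none of 78 members in GS4T cells by limma (0.189% of all genes) or edgeR (0.00653%), and 17 by the unadjusted p (10.1%). For GA3T it called 0 of 77 (0% in limma and 0% in edgeR), and 7 by the unadjusted p (6.84%). Among fucosyltransferases Fut9 had 2.07 and 4.10 normalized counts in proximal GWTT libraries and 89.5 and 97.7 in GS4T libraries (4.58 ± 0.55, adjusted p = 0.0115). It had 0 and 7.74 normalized counts in distal GWTT libraries and 68.2 and 58.7 in GS4T libraries (4.44 ± 1.09, adjusted p = 0.036). It was near 0 in control stromal cells. Fut10 fell proximally (-1.16 ± 0.13, adjusted p = 0.0104), and Fut2 and Fut4 rose distally (2.93 ± 0.49, adjusted p = 0.0121 and 1.76 ± 0.24, adjusted p = 0.00685). With the epithelial covariate the distal value of Fut9 was 0.008 on the log2 scale.

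GA3T stromal cells, set against the same control libraries, gave fewer calls. Called were 1 of 78 members in proximal GA3T cells (against 0.358% of 15346 genes) and 0 of 76 in distal ones by limma and edgeR (0% and 0% of 15414 genes), while DESeq2 called 11 distal members (5.03% of all genes) and the distal unadjusted count was 18 (7.77%). The 1 call was Chst1, with 288 and 267 normalized counts in proximal GWTT libraries and 943 and 1225 in GA3T libraries (log2 fold change 1.95 ± 0.18 SE, limma adjusted p = 0.0496), which was lost with a pseudocount of 0.1, with upper-quartile scaling, in edgeR and without either control or the second GA3T library. Chst11 had 673 and 603 normalized counts in proximal GWTT libraries and 1775 and 2999 in GA3T libraries (1.85 ± 0.27, adjusted p = 0.0728). It had 1488 and 1390.3 normalized counts in distal GWTT libraries and 2169.7 and 4651 in GA3T libraries (1.14 ± 0.35, adjusted p = 0.203). Chst15 had 672 and 629 normalized counts in proximal GWTT libraries and 1431 and 1618 in GA3T libraries (1.22 ± 0.12, adjusted p = 0.0505). All GA3T libraries were above the controls in these. Galnt15 had 5983 and 2576 normalized counts in proximal GWTT libraries and 1868 and 568 in GA3T libraries (-1.93 ± 0.68, adjusted p = 0.204). It had 1729 and 1839 normalized counts in distal GWTT libraries and 1111 and 134 in GA3T libraries (-2.20 ± 0.94, adjusted p = 0.295), all below. Galnt3 had 10.0 and 9.91 normalized counts in distal GWTT libraries and 124 and 120.1 in GA3T libraries (3.49 ± 0.40, adjusted p = 0.0812). The epithelial markers were again higher in knockout libraries, with sums of 285 to 9914 in proximal GWTT and 10108 to 15604 in GA3T libraries, and of 1178 to 3678 and 9144 to 20174 in distal GA3T libraries, and their part was not tested beyond the covariate, with which 0 proximal members were called.

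Other genes of the pathway were called in few numbers in stromal cells. In proximal GS4T cells Papss2 fell (-1.39 ± 0.18, adjusted p = 0.0133, 1 of 21 supply genes), with Ust, a uronyl sulfotransferase gene (-1.31 ± 0.14, adjusted p = 0.00981), and the fucose transporter gene Slc35c1 rose by 1.09. In distal ones 5 of 8 mucins rose, among them Muc2 (464 and 1099.7 normalized counts in GWTT libraries and 2843 and 10001 in GS4T libraries, 2.90 ± 0.65, adjusted p = 0.0282), Muc4 and Muc13, which are epithelial genes, and among the supply genes Gmds rose by 1.73.

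**Figure D3:**
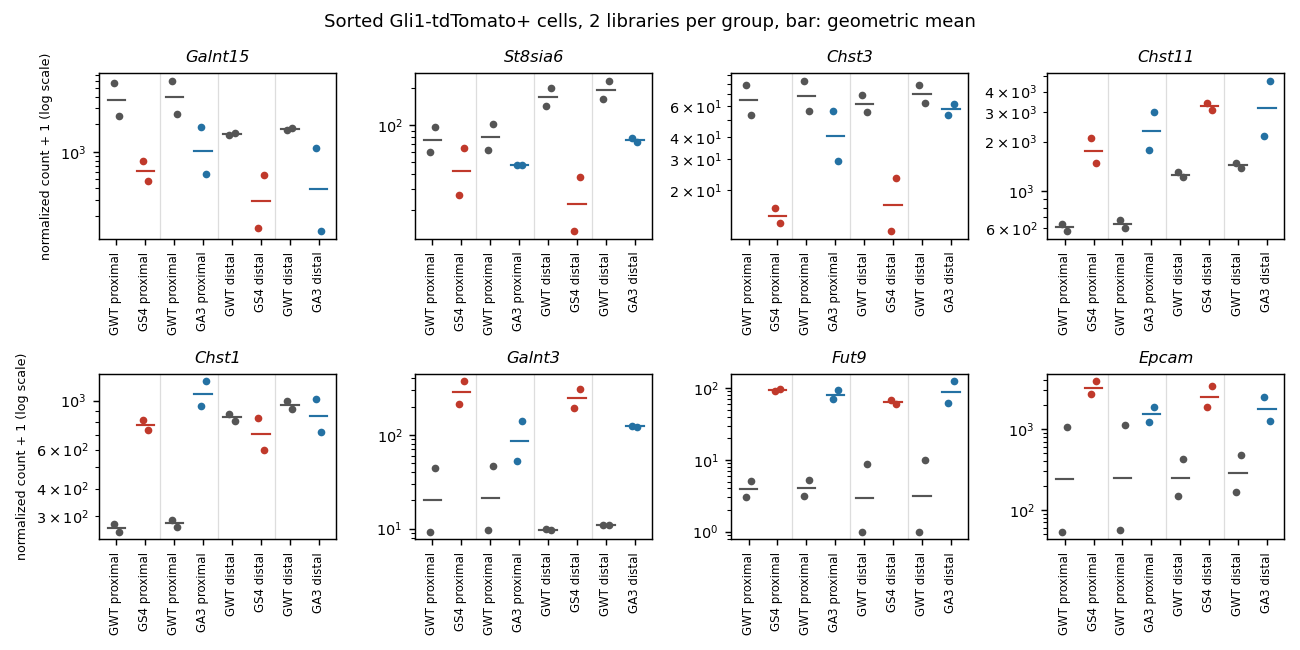
Normalized counts + 1 (log axis) of 7 members and of the epithelial marker Epcam in sorted Gli1-tdTomato+ cells, 1 point per library and a bar at the geometric mean, for GWTT controls (grey), GS4T (red) and GA3T (blue) by segment; each control appears in both tables of its segment. Galnt15 is lower and Chst11 higher in every knockout library than in the controls of its segment, and Galnt3, Fut9 and Epcam are higher together.

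Organoids, which hold epithelium without stroma, had no member called after 12 h of either cytokine, and B4galt1, Galnt3, Galnt6, B4galt5 and Chst15 rose after 72 h of each. At 12 h limma and edgeR called 0 of 60 members with IL-1 (0.0542% and 0.0155% of 12913 genes) and 0 of 60 with IL-17A (0.0385% and 0.0308% of 12977), DESeq2 called 0 and 0 (0.333% and 0.393%), and the unadjusted count was 1 and 0 (0.922% and 1.08%). That 1 member was B3gnt9, with 63.7, 53.3 and 50.4 normalized counts in the control and 32.3, 16.1 and 32.6 in the IL-1 libraries (-1.08 ± 0.34, adjusted p = 0.886). Smaller differences were present without a call. Every IL-17A library at 12 h was above every control for B4galt1 (0.45 ± 0.14, limma adjusted p = 0.844) and Galnt3 (0.42 ± 0.11, adjusted p = 0.774). Every IL-1 library was above them for Galnt3 (0.26 ± 0.11, adjusted p = 0.886). Fut11 was below every control with either cytokine. By Xist reads 2 controls were male and 1 female at 12 h, and 1 library was male and 2 female with each cytokine. Deviations of same-numbered libraries correlated at 0.62 to 0.64, which this fit left out. The 0 calls at 12 h therefore do not show that no early change took place. At 72 h of IL-1, 18 of 58 members (31.0%) were called, 11 higher and 7 lower, against 23% of 13023 genes. At 72 h of IL-17A, 6 of 60 (10.0%) were called, all higher, against 7.94% of 13073 genes. These shares are near those of all genes and are no result about the families as such. The median log2 fold changes were 0.17 and 0.06 over the members beside -0.001 and -0.006 over all genes. Upper-quartile scaling moved the median of all genes to -0.1 in both tables and the IL-1 calls to 9 higher and 10 lower.

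With IL-1 at 72 h, 9 of the called members that begin, branch or elongate chains rose and 5 fell. B4galt1 had 1385, 1153 and 1129 normalized counts in control libraries and 5568, 2959.5 and 5312 in IL-1 libraries (log2 fold change 1.87 ± 0.25 SE, limma adjusted p = 0.00314). Galnt3 had 2362, 2665 and 2682 normalized counts in control libraries and 10895, 3981 and 7212 in IL-1 libraries (1.40 ± 0.33, adjusted p = 0.0136). Galnt6 had 1061, 1205 and 1129.5 normalized counts in control libraries and 3898, 1859 and 3491 in IL-1 libraries (1.38 ± 0.27, adjusted p = 0.00771). All 3 IL-1 libraries were above all controls in these genes, and the second IL-1 library, the female one of the group, was the lowest. B3gnt2, of polylactosamine chains, B4galt5, of lactosylceramide, and the core 2 genes Gcnt1 and Gcnt4 rose as well (1.60 ± 0.25, adjusted p = 0.00405, 1.36 ± 0.29, adjusted p = 0.00998, 1.60 ± 0.52, adjusted p = 0.042 and 1.12 ± 0.29, adjusted p = 0.0183). Galnt18 rose at low counts, 5.32, 9.53 and 17.0 normalized counts in control libraries and 33.7, 35.9 and 62.5 in IL-1 libraries (2.03 ± 0.52, adjusted p = 0.0193), with Galnt6os (1.13 ± 0.38, adjusted p = 0.0477).

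St3gal4, which adds α2,3-linked sialic acid to the galactose of lactosamine, had the largest rise among called members. It had 3904, 3367 and 3457 normalized counts in control libraries and 15659.9, 14124 and 32036 in IL-1 libraries (log2 fold change 2.43 ± 0.30 SE, limma adjusted p = 0.00295), with the third IL-1 library the highest. Among sialyltransferases it was the 1 of 10 called. Chst15 was the 1 of 4 sulfotransferases called, with 149.9, 149.6 and 151 normalized counts in control libraries and 742, 378 and 563 in IL-1 libraries (1.84 ± 0.26, adjusted p = 0.00351), the control libraries lying close together. St3gal1 had 455, 107 and 131 normalized counts in control libraries and 506, 414 and 643 in IL-1 libraries (1.46 ± 0.51, adjusted p = 0.0545), where the male control library overlapped the treated ones.

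The 7 members that fell were B3gnt6, B3galt2, B4galnt4, B3galt6, Fut1, Fut11 and Galnt5. B3gnt6, the core 3 enzyme, had 41.7, 86.7 and 60.2 normalized counts in control libraries and 3.61, 22.9 and 8.78 in IL-1 libraries (-2.58 ± 0.64, adjusted p = 0.0171). Galnt5 had 263, 496 and 506 normalized counts in control libraries and 79.5, 247 and 116 in IL-1 libraries (-1.61 ± 0.45, adjusted p = 0.0246). Neither overlapped its controls. B3galt2 went from 4.43, 38.1 and 24.6 to 0, 1.99 and 3.29 (-2.91 ± 0.94, adjusted p = 0.0421). B4galnt4 was -1.66 ± 0.47 (adjusted p = 0.0261), Fut1 -1.10 ± 0.34 (adjusted p = 0.0353), Fut11 -1.01 ± 0.28 (adjusted p = 0.0236) and B3galt6, of the proteoglycan linker, -1.03 ± 0.31 (adjusted p = 0.0325). The chaperone gene C1galt1c1 had 893, 1116 and 1087 normalized counts in control libraries and 468, 708 and 473 in IL-1 libraries (-0.93 ± 0.21, adjusted p = 0.0116), and C1galt1 was 0.25 ± 0.22 (adjusted p = 0.399).

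With IL-17A, set against the same controls, the 6 members called were B4galt1, B4galt5, Chst15, Galnt3, Galnt6 and St3gal1. B4galt1 had 1383, 1146 and 1126 normalized counts in control libraries and 5516, 3342 and 7204 in IL-17A libraries (log2 fold change 2.07 ± 0.28 SE, limma adjusted p = 0.027). Chst15 had 149.6, 149 and 151 normalized counts in control libraries and 723, 405 and 475 in IL-17A libraries (1.78 ± 0.26, adjusted p = 0.031). Galnt3 had 2357, 2649 and 2677 normalized counts in control libraries and 10676, 4789 and 10372 in IL-17A libraries (1.66 ± 0.31, adjusted p = 0.0371). No IL-17A library overlapped a control in these genes, and the second library of Galnt3 was the lowest of the treated ones. St3gal1 had 454, 106 and 130.3 normalized counts in control libraries and 569, 1232 and 1185 in IL-17A libraries (2.34 ± 0.58, adjusted p = 0.0492). Its control at 454 was the male one, the lower controls were female and all IL-17A libraries were male. Sex and IL-17A are therefore not balanced in this rise, and the first IL-17A library was less than 2-fold above the male control. St3gal4 had 3896, 3348 and 3450.3 normalized counts in control libraries and 16021, 2679 and 31170.3 in IL-17A libraries (1.63 ± 0.81, adjusted p = 0.179), its second IL-17A library lying below every control. B3gnt6 had 41.6, 86.2 and 60.1 normalized counts in control libraries and 4.48, 47.0 and 12.6 in IL-17A libraries (adjusted p = 0.114, limma), with 1 IL-17A library among the controls.

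The sexes of the libraries were mixed: by the level of Xist reads all 3 IL-17A libraries at 72 h were male, of the IL-1 libraries 2 were male and 1 female, and of the controls 1 was male and 2 were female. No called member had overlapping groups at 72 h, so its direction within a sex was fixed and is no support. Within male libraries (1 control and 2 IL-1 libraries) 15 of the 18 members called with IL-1 differed by 2-fold or more, and within female ones (2 controls and 1 IL-1 library) 11 of 18. For IL-17A the 6 members differed by 2-fold or more from the 1 male control as a group of libraries, though not in each library. There was no female IL-17A library to compare. The members were called for a 2-fold change in these same libraries, so their folds within a sex are largely fixed too and are no support. With sex as a block the IL-17A count was 0. Leaving out the second IL-17A library gave 18 members, and leaving out the first IL-17A library or control 2 or 4 gave 0, without the third it was 1. For IL-1 the count was 10, 9 and 7 without control 2, control 4 and the third IL-1 library. Epithelial markers (8 of 8) summed to 138321 to 160687 in control and 255400.0 to 275950.0 in IL-1 libraries, absorptive markers (6 of 6, 4 of them called higher) to 36937 to 89802 and 98459.7 to 241574, and goblet markers (9 of 9) to 108138 to 117278 and 47564 to 182790.0, and the part of these in the differences was not tested.

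Other genes of the pathway were called with IL-1 at 72 h. Muc1 had 16.9, 148 and 114 normalized counts in control libraries and 1567, 733 and 1135 in IL-1 libraries (4.02 ± 0.75, adjusted p = 0.00658). Muc13 had 10309, 13507 and 13571 normalized counts in control libraries and 66628, 36252 and 53138 in IL-1 libraries (2.03 ± 0.26, adjusted p = 0.00295). Both are membrane mucins, the 2 of 9 mucins called. Muc2 had 46324, 44984 and 51066 normalized counts in control libraries and 9702, 46715 and 31766 in IL-1 libraries (-0.96 ± 0.52, adjusted p = 0.175), overlapping. Gfpt1 and Gnpnat1, which make UDP-N-acetylglucosamine, rose (1.31 ± 0.28, adjusted p = 0.0104 and 1.51 ± 0.48, adjusted p = 0.0396) and Galk2 fell by 1.32 on the log2 scale, of 20 supply genes. The sulfate transporter gene Slc26a2 (1.55 ± 0.30, adjusted p = 0.00732) and the sugar nucleotide transporter gene Slc35d1 (1.61 ± 0.33, adjusted p = 0.00882) rose and Slc35a1 and Slc26a1 fell (-1.13 and -1.67), of 10 transporter genes. Among the trimming enzymes the sialidase genes Neu3 (4.49 ± 0.85, adjusted p = 0.0072) and Neu1 (1.37) rose and Neu2 fell by 1.79, and of 11 other transferases A4galt rose (2.20) and A4gnt fell (-3.49 ± 0.84, adjusted p = 0.0155). With IL-17A Muc1 (4.27 ± 0.83, adjusted p = 0.0393), Muc13 (2.15 ± 0.39, adjusted p = 0.0356), Slc35d1 (1.69 ± 0.27, adjusted p = 0.0346) and Ugp2 (1.02) rose and Galk2 fell by 1.46.

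The effect of IL-1 at 72 h was set against that at 12 h as an interaction, called at an adjusted p under 0.05 in limma with no fold threshold. It was called for 14 of 59 members (23.7%), 10 upward and 4 downward at the later time, against 25.5% of 12955 genes, a share that makes it no result about these members. The fit entered the 2 control libraries that both times share as separate libraries, so its p-values rest on repeated reads. Setting the IL-1 libraries of 72 h against those of 12 h directly, with each distinct control entered once for the spread, gave 21 members, an alternative chosen after seeing the data. The share of all genes is not given beside this count, so it is no result about these members either. Among the called members St3gal4 had the largest upward value (2.55 ± 0.45, adjusted p = 0.00603) and B3gnt6 the largest downward one (-3.11 ± 0.95, adjusted p = 0.0348), while B3galt2, not called, was at -3.51 ± 1.22 (adjusted p = 0.0554). C1galt1c1 was at -1.35 ± 0.27 (adjusted p = 0.00806), from 1099.7, 1375 and 1453 in the 12 h IL-1 libraries beside 859, 942 and 1133 in their controls. Leaving out 1 library gave 7 to 17 members, and 7 to 9 without control 1 or 2 or IL-1 library 3 or 4 at 12 h, or without control 2 or 4 or IL-1 library 1 or 3 at 72 h. For IL-17A limma and edgeR called 0 of 60 (0.0384% and 0.0384% of 13022 genes) and the unadjusted p 17 (28.3%).

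**Figure D4:**
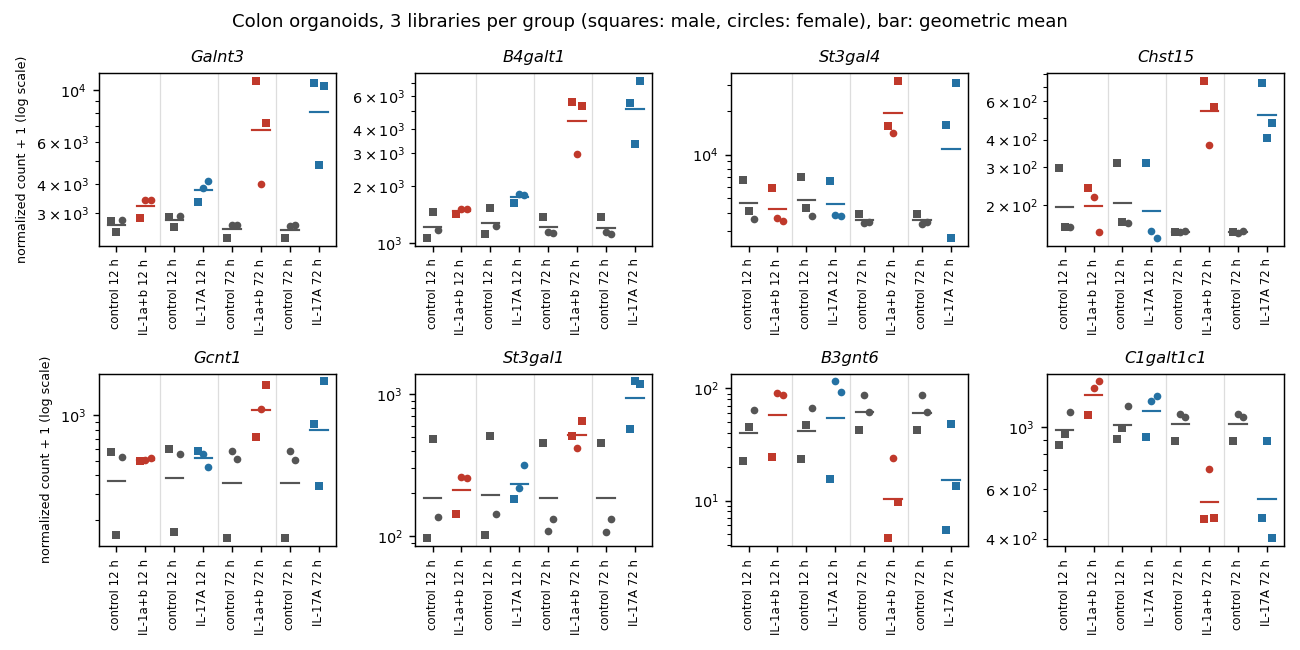
Normalized counts + 1 (log axis) of 8 members in organoids, 1 point per library and a bar at the geometric mean, for controls (grey), IL-1 (red) and IL-17A (blue) at 12 and 72 h, with squares for male and circles for female libraries; 2 control libraries at 12 h hold the same reads as 2 at 72 h. Galnt3, B4galt1 and Chst15 lie above the controls at 72 h in all 6 treated libraries, and B3gnt6 lies below its controls in the IL-1 libraries at 72 h. At 12 h Galnt3 lies above the controls with both cytokines and B4galt1 with IL-17A, by less than 2-fold, and Chst15 overlaps them.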

How the data were processed

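Muc2-mCherry+ cells, Gli1-tdTomato+ cells and organoids were profiled by RNA-seq (42 library columns, 12 tables). The authors prepared libraries with a SMARTER kit, aligned reads with STAR 2.5.3 to mm10 and deposited signal values: gene counts divided by DESeq2 1.28.1 size factors, separately in each table. The counting program, annotation and strand setting are not given in the sources used here. Dividing each column by its smallest step returned whole reads for 100% of values (tolerance 0.1), which gave each library's depth, CPM (reads scaled to a common library total) and the alternative count tests. A value of 1 read has a large counting error, and depth limits the lowest members.

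Genes with a mean of at least 10 were tested in limma 3.58.1 (R 4.3.3) with trend on log2(value + 1), or on log2(CPM + 0.1) between cell types and segments, where the recovered reads of the GA3 tables served and a gene without a row entered as 0. Fold changes are on these scales, which understate low genes. Benjamini-Hochberg adjustment covered all genes of a table. Groups came from the labels, with 2 or 3 libraries each. Alternatives were edgeR 4.0.16 and DESeq2 1.42.0 on recovered reads, the unadjusted p of limma, other pseudocounts, filters and scalings, a replicate block, and libraries left out. The paper set its threshold on a P value from DESeq2, so the unadjusted counts here are not those of its rule. The script was tested on simulated data. Named were members called in any comparison, per comparison the 3 with the largest increase and decrease among those whose groups did not overlap, a fixed set of colonic O-glycan enzymes, and Smad4, Bmpr1a and Muc2. The members and all gene lists were chosen with earlier results of these data known. A second row of St6galnac2 in the GS4M2 tables stayed in the fits but was not counted as a member. The 4 rows without a gene name in each of these tables were left out, and they held 20.9% to 28.2% of the summed values of a library. The remaining values of genes outside the lists entered the fits only. Some results for listed genes are not reported here.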

Additional observations from a re-analysis of the deposited data

Results flagged for a closer look

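The effect of IL-1 on organoids differed between 72 h and 12 h, by the interaction in limma at an adjusted p under 0.05, for 14 of 59 members (23.7%), against 25.5% of all genes, so the count is no result about these members. Each value is the later minus the earlier log2 fold change. It was positive for St3gal4 (2.55), Chst15 (1.82), B4galt1 (1.58), Galnt6 (1.46), B3gnt2 (1.41), B4galt5 (1.35), Gcnt4 (1.22), Galnt3 (1.14), B4galt3 (0.78) and St3gal3 (0.72). It was negative for B3gnt6 (-3.11), Galnt5 (-1.85), C1galt1c1 (-1.35) and B3galt6 (-1.12). For the chaperone gene C1galt1c1, 2 of the 3 IL-1 libraries stood above all controls at 12 h and 3 of 3 below all controls at 72 h. The 12 h and 72 h controls share 2 libraries, which the fit entered as separate ones. At 12 h 2 of the 3 controls and 1 of the 3 IL-1 libraries were male, and at 72 h 1 control and 2 IL-1 libraries were. Sex was thus not balanced in this interaction, no sex block was run on it, and the part of sex was not tested. Each distinct control was entered once only where the IL-1 libraries of both times were set against each other directly.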

How the results depend on the processing

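Counts of members called moved as follows. No share over all genes stands beside the counts of this section, so they describe how the calls move and are no result about the members. With the unadjusted p and a 2-fold change they were 6 and 4 for proximal and distal GS4M2, 8 and 5 for GA3M2, 11 and 18 for GA3T, 1 for IL-1 at 12 h, 16 for IL-17A at 72 h, 15 and 12 for proximal against distal Muc2 and Gli1 cells, and with the unadjusted p and no fold threshold 11, 1, 17 and 7 for the segment interactions of GS4M2, GA3M2, GS4T and GA3T and 17 for the time interaction of IL-17A. DESeq2 gave 4 and 2 for GS4M2, 5 and 3 for GA3M2, 6 and 11 for GA3T, 16 for IL-17A at 72 h and 15 for proximal against distal Muc2 cells. edgeR and TMM scaling gave 0 in that last comparison. For proximal GA3T the count was 0 with a pseudocount of 0.1, upper-quartile scaling, edgeR or the epithelial covariate and 2 with no filter. The epithelial covariate gave 12 and 0 for proximal and distal GS4T, and with it Chst4 (-0.63) and Chst8 (-1.29) reversed in distal GS4T. At 72 h, averaging the closest pair of libraries gave 10 for IL-1 and 0 for IL-17A, and sex as a block gave 0 for IL-17A. The cytokine libraries alone gave 17 for the time interaction of IL-17A. The causes of these moves were not tested. The covariate, the closest pair, the sex block and the cytokine libraries alone were chosen after seeing the data, and averaging libraries within sampling noise was not run because no such pair remained.

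Libraries with the same replicate number share only that number in the labels. With a replicate block the counts were 4 for proximal GS4M2, 6 for proximal GA3M2, 4 and 1 for GA3T, 1 and 1 for IL-1 and IL-17A at 12 h, 11 and 0 at 72 h, 15 for proximal against distal Muc2 cells and 4 for the time interaction of IL-1, and it moved no other count by over 1.5 times. The correlation of deviations between same-numbered libraries was -0.06 to 0.3 for the knockouts, 0.56 between the segments of Muc2 cells, 0.62 to 0.64 at 12 h, 0.18 and 0.2 for IL-1 and -0.1 and -0.19 for IL-17A at 72 h.

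Leaving out 1 library gave 0 to 1 and 0 to 2 members for proximal and distal GS4M2, 0 to 7 and 0 to 5 for GA3M2, 0 to 27 and 14 to 20 for GS4T, 0 to 2 and 0 to 7 for GA3T, 0 to 0 for both cytokines at 12 h, 7 to 23 for IL-1 and 0 to 18 for IL-17A at 72 h, 0 to 12 and 0 to 0 for proximal against distal Muc2 and Gli1 cells, 68 to 71 for Muc2 against Gli1 cells, 0 to 1 for the segment interaction of GS4T and 0 for the others, 7 to 17 for the time interaction of IL-1 and 0 to 20 for that of IL-17A. Of 2812 refits of 223 pairs of a named member and a comparison, 2358 kept their direction and side of the threshold, 383 lost a call, 69 gained one and 2 reversed. The pairs include members that were not called, for which staying uncalled counts as kept, so these numbers do not measure how stable the calls are.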

Other observations

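Of the members, St6galnac1, the sialyl-Tn enzyme gene, separated organoid libraries by their sex: among the libraries whose tables list it, it was at 14.9 to 29 RPM (median 26.2, n = 6) in female and at 0.176 to 1.75 RPM (median 0.896, n = 7) in male libraries. RPM here are recovered reads scaled as CPM is. Fut9 was at 13.7 to 47.7 RPM in 7 female and 1.98 to 13.2 in 9 male libraries, and B4galnt2 at 70.7 to 159 and 215 to 301. Which mice the organoids came from is not in the labels, so sex and donor cannot be told apart. No test was made because these members were noticed in the values. In control goblet cells Fut9 had 12.9 CPM in the female and 18.8 in the male distal library, and 1.87 and 2.14 proximally. B4galnt2 had 207 and 186 CPM distally and 527 and 446 proximally, in the same order. The paper describes distal colon organoids, and a difference in the part of the colon between libraries was not tested.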
